A study of Caenorhabditis elegans with 4 samples.

Results

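The subject here is the peaks of RNA polymerase II on chromosome IV of Caenorhabditis elegans, mapped in L3 larvae by ChIP-seq, that is, by sequencing the DNA that precipitates with the enzyme. The members were chosen by chromosome alone: all 546 rows that 3 deposited peak lists place on IV were taken, 152 from ChIP replicate 1, 174 from ChIP replicate 2 and 220 from the list called on the merged reads of both. Rows that shared at least 1 bp were merged, which gave 250 regions out of 1922 in the whole series, all 6 chromosomes included. Chromosomes II, III, V and X served as background and held 225, 230, 210 and 172 regions, or 837 together.

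Both ChIP samples were immunoprecipitated with the mouse monoclonal antibody 8WG16, and both input samples are DNA of the same kind of lysate before precipitation. Each of the 4 samples came from hermaphrodites of strain OP54, which carries the mutation unc-119(ed3) on III and the transgene wgIs54, raised at 20 °C and crosslinked with 2% formaldehyde. wgIs54 was made by bombardment and holds unc-119(+) together with egl-5::TY1::EGFP::3xFLAG, a tagged copy of a Hox gene of the posterior body, and no sample without it was part of the series. Nothing in the labels tells whether separate cultures were used for the replicates, so the spread between them may be technical.

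Polymerase II transcribes the protein-coding genes and many small RNA genes, and 8WG16 binds the repeated heptapeptide at the C terminus of AMA-1, its largest subunit. A peak marks a stretch where more fragments were recovered than in the input, and wide peaks can form where the enzyme is spread along a transcribed gene or over neighbouring genes. The worm's autosomes have gene-dense centres that recombine little, and arms that recombine more and hold more repeats. Chromosome IV is also known for its large groups of piRNA genes and for genes of the major sperm protein, the motile protein of nematode sperm. ama-1 itself lies on this chromosome.

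ChIP replicates 1 and 2 had 1959480 and 2364309 uniquely mapped reads, out of 4922526 and 4144392 reads (39.8% and 57.0%). The merged input served as control for every list. Peaks on IV covered 2.20% of its 17.5 Mb span in replicate 1, 2.52% in replicate 2 and 3.42% in the combined list, and 3.79% in the 250 merged regions. The 2 replicate lists averaged 9.33 ± 0.890 peaks per Mb on IV (SD, n = 2), and the median peak width was 2263 bp in replicate 1, 2191.5 bp in replicate 2 and 2275.5 bp in the combined list. Positions are in WormBase WS220. No feature on IV is among those the files mark as changed when they were carried over from an earlier build. Regions were not assigned to genes, and no sequence is shown, because no genome or annotation of that build was used here.

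The first question was where on IV the polymerase lay. The span, from base 1 to the last peak at 17472418, was divided into a left arm of 4.37 Mb, a centre of 8.74 Mb and a right arm of 4.37 Mb, that is 25%, 50% and 25% of its length. The right arm carried the fewest regions per Mb, and the left arm nearly as many as the centre. The left arm held 65 regions (14.9 per Mb), the centre 149 (17.1 per Mb) and the right arm 36 (8.24 per Mb).

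The left arm thus had 1.81 times the regions of the right arm (exact 95% interval 1.18 to 2.79; two-sided exact binomial test, p = 0.00508, Benjamini-Hochberg adjusted over 3 tests p = 0.00762). The difference was larger than the spread between the replicates. The left arm had 9.84 and 11.4 peaks per Mb in replicates 1 and 2, and the right arm 3.66 and 6.64, so the arms did not overlap. The left arm averaged 10.6 ± 1.13 peaks per Mb and the right arm 5.15 ± 2.10 (SD, n = 2). By covered length the arms stood in the same order, with 4.06% of the left arm and 2.47% of the right arm in regions. Binomial p-values treat regions as independent, which neighbours are not, and are therefore too small by an amount that is not known. The tests were also chosen with earlier results of these data known, which the adjustment over 3 tests does not cover.

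The centre held 59.6% of the regions on 50% of the span (exact 95% interval 53.2 to 65.7; two-sided exact binomial test, p = 0.00288, adjusted over 3 tests p = 0.00762). On II, III, V and X together the centre held 67.1% of the regions. The excess on IV passed in replicate 1 alone with 61.2% (exact binomial p = 0.00723) and did not in replicate 2 alone, where 54.6% of the peaks lay in the centre (exact binomial p = 0.255). Nor did it pass with the span begun at the first peak (55.6%, exact binomial p = 0.0875), for the regions in all 3 lists (58.1%, exact binomial p = 0.146) or for those with the smaller q values (55.2%, exact binomial p = 0.283). The centre had 10.6 and 10.9 peaks per Mb in replicates 1 and 2, values that lie within the range of the left arm. The order of the compartments by strength differed between the lists. The median −log10 of the smallest q in any list was 10.5 in the left arm, 6.02 in the centre and 8.29 in the right arm for the merged regions. By the q of its own peaks, replicate 1 likewise had the centre lowest (7.21, 5.32 and 11.4 in the same order of compartments), while replicate 2 had it highest (6.02, 7.12 and 6.41). A q-value is the authors' measure of the significance of a peak against the input. Here a stronger peak means only one with a smaller q, which does not measure how much polymerase was bound.

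Along the chromosome the density changed more sharply than these 3 compartments show. The span was cut into 10 equal segments, numbered from the left end. Segment 7 held 43 regions (24.6 per Mb) and segment 3 held 35 (20.03 per Mb). Segment 4, between them, held 17 (9.73 per Mb), and segment 8, just right of the densest, also 17. Both replicates placed their highest counts in the same segments: segment 7 had 30 and 31 peaks in replicates 1 and 2, and segment 3 had 26 and 25. Segment 7 averaged 17.5 ± 0.405 peaks per Mb and segment 4 averaged 6.01 ± 0.405 (SD, n = 2). The replicates were furthest apart on segment 8, with 4 peaks in replicate 1 and 13 in replicate 2. Across the 10 segments the replicate counts had a Spearman's rho of 0.868 and a Pearson's r of 0.896, a description over segments that share the same input control.

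**Figure D1:**
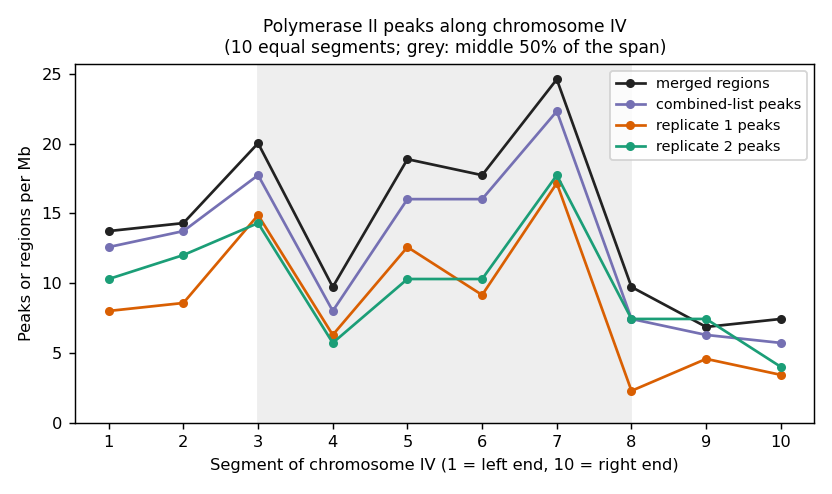
Peaks or merged regions per Mb (vertical axis) in each of 10 equal segments of IV (horizontal axis, left end first), with a line for the merged regions and for each of the 3 lists; grey marks the middle 50% of the span. Segments 3 and 7 stand out in both replicates (14.9 and 14.3 per Mb, and 17.2 and 17.7 per Mb), and segments 8, 9 and 10 hold 9.73, 6.87 and 7.44 regions per Mb.

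Among the other chromosomes, the order of the arms differed. II had 3.68 regions per Mb in its left arm and 18.1 in its right arm, and III had 5.23 and 14.2. V had 5.95 and 4.03, and X 6.34 and 10.2. IV was the only one of these 5 chromosomes whose left arm had more than 10 regions per Mb, and its left arm held 26.0% of its regions, against 10.9% of all regions on II, III, V and X. Its right arm held 14.4%, against 22.0% there. Which arm is called left is a convention of each chromosome's map, and the differences in arm share between chromosomes were not tested.

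**Figure D2:**
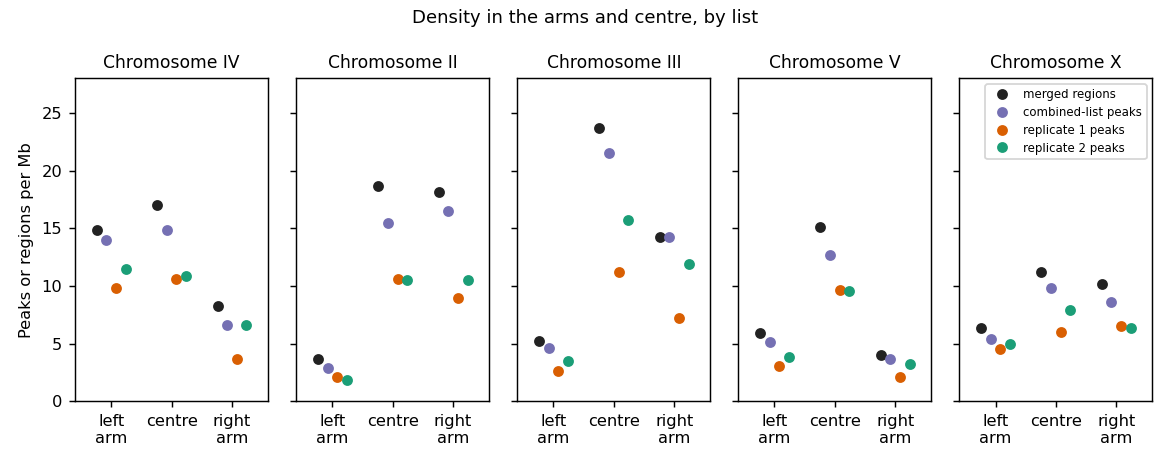
Peaks or merged regions per Mb (vertical axis) in the left arm, centre and right arm of IV and of the 4 background chromosomes, with a point for the merged regions and for each list. On IV the left arm (14.9 regions per Mb) is near the centre (17.1) and above the right arm (8.24), in every list.

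As a whole IV carried 14.3 regions per Mb, against 12.4 on II, III, V and X together. The ratio of 1.15 did not pass (exact binomial test, two-sided, p = 0.0509, also after adjustment over 3 tests; exact 95% interval 0.998 to 1.33). The replicate lists gave ratios of 1.27 in replicate 1 (exact binomial p = 0.0127) and 1.23 in replicate 2 (exact binomial p = 0.0185), both past the threshold. The combined list alone (1.16, exact binomial p = 0.0542) and the regions with the smaller q values (1.14, exact binomial p = 0.206) did not pass. The pooled background covers unlike chromosomes and leaves out I, where the rest of the 1922 regions lay, so the ratio does not compare IV with the whole genome. IV lay below III (16.7 regions per Mb) and II (14.8), and above V (10.07) and X (9.73). Per 100 protein-coding genes of the WBcel235 table, IV held 7.62 regions, III 8.71, II 6.53, X 6.30 and V 4.20.

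The second question was how far the 3 lists supported the same regions. All 3 lists held 93 of the 250 regions (37.2%, exact 95% interval 31.2 to 43.5), while 33.6% of the regions on II, III, V and X were held by all 3. A further 55 regions on IV were in the combined and replicate 2 lists, 35 in the combined and replicate 1 lists and 2 in both replicate lists alone. These are 22.0%, 14.0% and 0.800% of the regions on IV, against 23.3%, 10.3% and 1.43% on the background chromosomes. The remaining 65 were in 1 list, which was the combined list for 36, that of replicate 1 for 15 and that of replicate 2 for 14. They make up 26.0% of the regions on IV, against 31.4% on II, III, V and X. The combined list rests on the reads of both replicates, so support by all 3 is a description of the lists and not a repeat of the experiment.

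Support went with width and strength, in part by construction. A region spans all its peaks, and its strength is the smallest q of the lists that hold it. A further list can thus widen or strengthen a region but not the reverse. The combined list gave the smallest q in 87 of the 93 regions in all 3 lists. Where all 3 lists agreed on a region, the median width was 3531 bp and the median strength a −log10 q of 30.3. Those in the combined list and 1 replicate were about 2 kb wide, with medians of 1992 bp where the replicate was the first and 1821 bp where it was the second, and median −log10 q values of 5.58 and 5.96. Regions of the combined list alone had medians of 618 bp and 2.77, and 6 of the 250 regions were narrower than a 36 bp read.

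The same can be read, with the same limit, from the strength of the regions. Of the 91 regions with −log10 q between 2 and 5, none was in all 3 lists, which allows a share of up to 3.30% (3 counts of the 91), and 56 were in 1 list. On II, III, V and X 5 of the 330 such regions were in all 3 lists (1.52%). Of the 48 between 5 and 10 on IV, 17 were in all 3 (35.4%), against 15.4% on the background chromosomes. For the 39 between 10 and 20 it was 18 (46.2%), against 53.3%, and for the 40 between 20 and 50 it was 28 (70.0%), against 71.2%. IV was thus above the background in 1 of these 3 bins and below it in the other 2, and the differences were not tested. Of the 32 regions with a q under 1e-50, 30 were in all 3 lists (93.8%, exact 95% interval 79.2 to 99.2). On the background chromosomes 116 of the 154 regions of that strength were (75.3%, interval 67.7 to 81.9). That difference was not tested. Such strong regions made up 12.8% of the regions on IV and 18.4% of those on II, III, V and X. Over the 250 regions Spearman's rho between width and −log10 q was 0.665. Both come from the same reads, so this is a description.

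**Figure D3:**
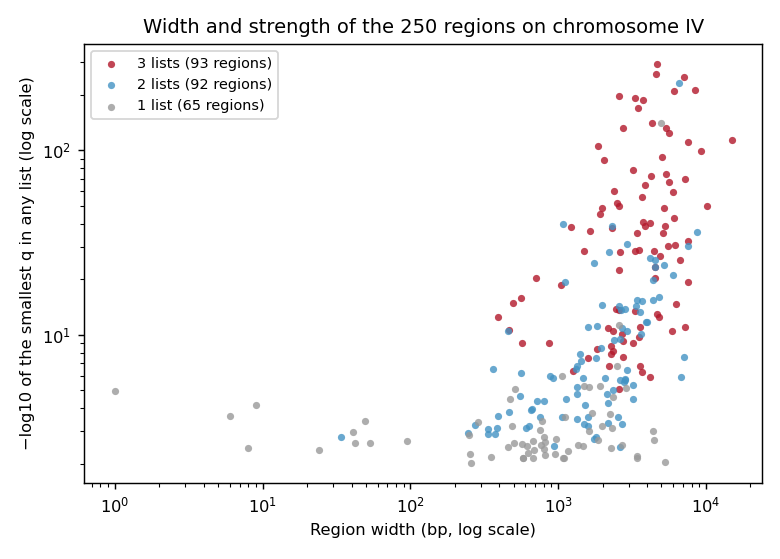
Width (horizontal, bp, log scale) against −log10 of the smallest q in any list (vertical, log scale) for the 250 regions on IV, coloured by the number of lists that hold them. Regions in all 3 lists fill the upper right, none of them below a −log10 q of 5, and the narrowest regions are in 1 or 2 lists.

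Between the replicates, 101 of the 152 replicate 1 peaks on IV overlapped a replicate 2 peak (66.4%, exact 95% interval 58.3 to 73.9), against 66.2% on II, III, V and X. In the other direction 103 of 174 did (59.2%, interval 51.5 to 66.6), against 56.5% there. These shares lie close to the background. The peaks found again were stronger and wider: in replicate 1 they had a median −log10 q of 9.42 and a median width of 2535 bp, and those without a partner 3.59 and 1341 bp. An overlap of 1 bp was enough, which a wide peak meets more easily, and the part of this in the difference was not tested. With 50% of both peaks covered, the share of replicate 1 peaks overlapped was 55.3%. In bases, the replicates shared 255.3 kb, which is 66.5% of the replicate 1 peak length and 58.04% of that of replicate 2.

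In the 95 regions with peaks in both replicates, the strengths were related but far from equal. For −log10 q, Spearman's rho came to 0.600 and Pearson's r to 0.501, across regions that share the input control and are not independent. Replicate 2 had the smaller q in 60 of the 95 and replicate 1 in 35, and the median −log10 q was 12.03 in replicate 2 and 10.2 in replicate 1. Replicate 2 had 1.21 times the unique reads and a larger uniquely mapped share (57.0%, against 39.8% in replicate 1). The part of either in this was not tested. In 17 regions the q of replicate 2 was smaller by over 50 orders of magnitude, and in 1 that of replicate 1. In the 82 regions with 1 peak in each replicate, the starts lay a median of 179 bp apart and the ends 102.5 bp.

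**Figure D4:**
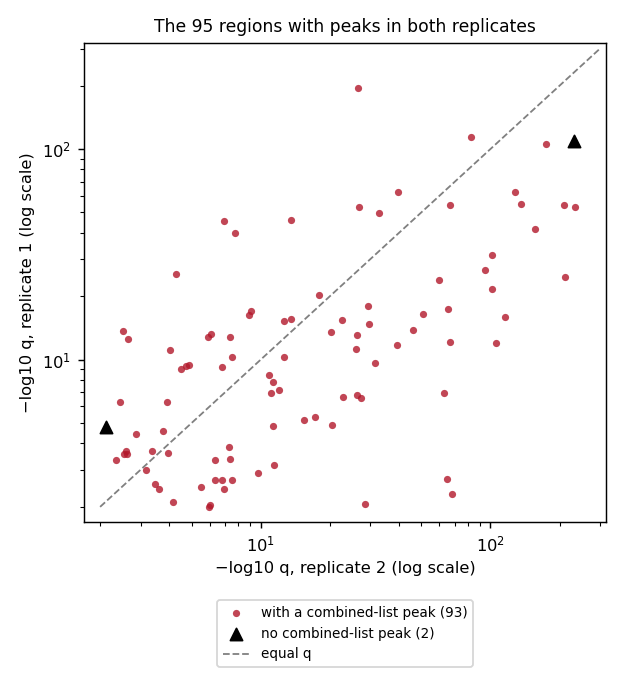
−log10 q in replicate 1 (vertical) against replicate 2 (horizontal), both on log scales, for the 95 regions of IV with peaks in both; the dashed line marks equal q and triangles the 2 regions without a combined-list peak. 60 of the 95 points lie on the side of the smaller q in replicate 2, and on the other side 1 point is over 50 orders of magnitude from equality.

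The 10 regions with the smallest q in any list were spread over the chromosome, 2 in the left arm, 6 in the centre and 2 in the right arm, and were 2.58 to 8.40 kb wide. In 8 of them replicate 2 had the smaller q, and in 2 replicate 1. The first was in the left arm at IV 3644678 to 3649323, with a q of 9.35e-54 in replicate 1, 5.86e-235 in replicate 2 and 1.45e-294 in the combined list. Its 3 peaks were nearly congruent, 4.59, 4.63 and 4.65 kb wide in the same order, and the replicates differed by 48 bp at the start and 11 bp at the end.

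The next was in the right arm at IV 16167101 to 16171684, with a q of 7.90e-55 in replicate 1, 8.66e-209 in replicate 2 and 3.92e-259 in the combined list. It stood out in a thin part of the chromosome. A narrower region followed 611 bp later, at 16172296 to 16173381, with a q of 1.30e-40 in replicate 2 and 2.45e-35 in the combined list and no peak in replicate 1, and it was the strongest region held by those 2 lists alone.

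In the centre, the region at IV 9438547 to 9445686 had a q of 6.58e-249 in the combined list and 1.55e-211 in replicate 2, as 1 peak of 7.11 and 7.10 kb. Replicate 1 broke it into peaks of 4.03 and 1.94 kb with q values of 2.61e-15 and 1.68e-25. The region at IV 12031332 to 12037458 was likewise 1 peak in the combined list (q 8.50e-210) and in replicate 2 (q 3.75e-157) and 2 peaks in replicate 1, with q values of 0.000248 and 2.11e-42. In both cases replicate 1 was the list that split the region.

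The region at IV 12210150 to 12218549 went the other way. It had a q of 2.30e-195 in replicate 1, the smallest of that list on IV, as 1 peak of 8.33 kb. Replicate 2 held peaks of 1.53 and 4.61 kb there, with q values of 8.70e-13 and 2.91e-27. The combined list had 1 peak of 8.40 kb with a q of 4.46e-214. Among the 95 regions with peaks in both replicates, it was the 1 in which replicate 1 was stronger by over 50 orders of magnitude. Replicate 1 was also the stronger at IV 3231415 to 3234749, in the left arm, with a q of 1.21e-114, against 4.62e-83 in replicate 2 and 7.48e-193 in the combined list.

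A further 3 regions of the 10 were at IV 14032381 to 14034956 in the right arm and at IV 8430144 to 8433885 and IV 11592420 to 11595914 in the centre. The first of these, 2.58 kb wide, had a q of 1.91e-106 in replicate 1, 9.86e-175 in replicate 2 and 5.31e-197 in the combined list. The region of 3.74 kb at 8430144 had q values of 2.46e-63, 7.13e-129 and 3.29e-189 in the same order of lists. That of 3.50 kb at 11592420 had 1.51e-55, 1.50e-136 and 6.19e-170. Each of these 3 was a single peak in every list.

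The remaining one of the 10, at IV 4467907 to 4474509 near the left edge of the centre, was absent from the combined list. Both replicates held it as 1 peak, of 6.57 kb with a q of 4.72e-110 in replicate 1 and of 6.60 kb with a q of 1.10e-231 in replicate 2. The 2 peaks started 20 bp and ended 11 bp apart. Only IV 17276834 to 17281819, in the right arm, shared this absence at comparable strength, with a q of 1.17e-140 in replicate 1 and no peak in replicate 2 or the combined list. Of the 26 regions on IV with a replicate q under 1e-50, these 2 had no combined-list peak (7.69%, exact 95% interval 0.946 to 25.1), against 26.1% of the 115 such regions on II, III, V and X. In all, 31 regions on IV had no combined-list peak (12.4%), close to the 13.4% on the background chromosomes, and 26 of the 31 had no q below 1e-05. Whether the polymerase was not detected at the 2 strong ones in the merged reads, or they were left out of the combined list for another reason, cannot be read from these files.

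The 5 widest regions were 8.40 to 14.9 kb, 1 in the right arm, 2 in the left arm and 2 in the centre, and the narrowest of the 5 was the region at 12210150 described above. The widest, at IV 14609525 to 14624450, was 1 peak of 14.9 kb in the combined list (q 4.14e-114). Replicate 1 covered 9.23 kb of it with 1 peak (q 2.76e-22), and replicate 2 held a strong peak of 7.38 kb (q 1.40e-102) and a weak one of 5.04 kb (q 0.000434). The next, at IV 9989375 to 9999498, was 1 peak of 10.1 kb in the combined list (q 2.32e-50) and 2 peaks in each replicate, of 4.86 and 4.71 kb in replicate 1 and of 4.06 and 4.74 kb in replicate 2. In both replicates the second of the 2 was the stronger, with a q of 5.08e-21 in replicate 1 and 1.26e-18 in replicate 2.

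The region at IV 2599362 to 2608684 in the left arm was also 2 peaks in each replicate, and there the first was the stronger, with a q of 7.25e-13 in replicate 1 and 1.36e-67 in replicate 2. Its combined-list peak of 9.32 kb had a q of 5.99e-100. The last of the 5, at IV 1062276 to 1070953, was 8.68 kb wide in replicate 1 (q 5.89e-37) and 7.27 kb in the combined list (q 5.35e-16), and had no peak in replicate 2. Splitting of this kind was uncommon. Of the 93 regions in all 3 lists, 80 were 1 peak in each of them, and 7 were broken up in replicate 1, 9 in replicate 2 and 1 in the combined list.

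The last question was how the regions were spaced. Neighbouring regions on IV were a median of 35.9 kb apart (quartiles 9.85 and 89.4 kb, 249 gaps), against 37.3 kb on II, III, V and X (quartiles 7.00 and 99.7 kb). The medians of those 4 chromosomes ran from 25.5 kb on III to 61.9 kb on X. In the right arm of IV the median gap was 60.3 kb, against 34.2 kb in the centre and 35.1 kb in the left arm, and 14 of its 36 gaps were over 100 kb (38.9%), against 15.4% in the centre and 23.4% in the left arm. No gap was below 200 bp, and none within a list was either.

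**Figure D5:**
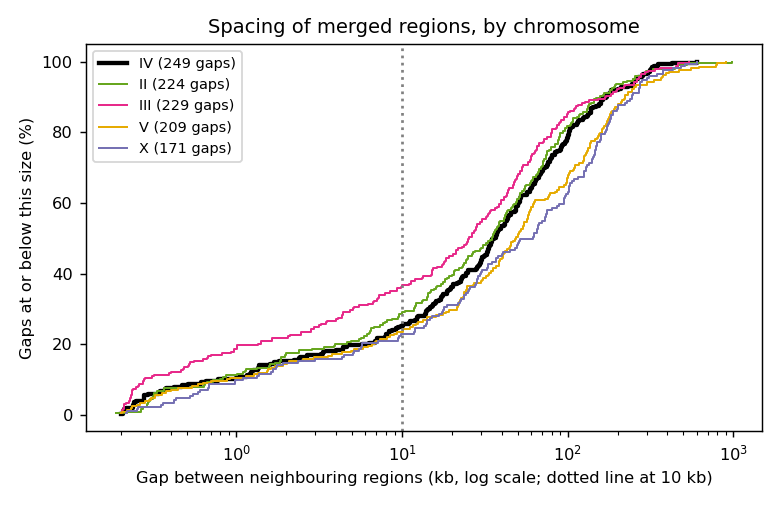
Share of gaps (vertical, %) at or below a given size (horizontal, kb, log scale) between neighbouring regions on IV and on each background chromosome; the dotted line marks 10 kb. The line for IV lies between those of III and X through most of the range, with a median gap of 35.9 kb.

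Of the 250 regions, 114 lay within 10 kb of another (45.6%, exact 95% interval 39.3 to 52.0), against 47.2% on II, III, V and X, which is close to the background. They formed 51 clusters, 41 of 2 regions, 8 of 3 and 2 of 4, and 136 regions stood alone. The share in clusters was 46.2% in the left arm, 47.0% in the centre and 38.9% in the right arm, with intervals that overlap (33.7 to 59.0, 38.8 to 55.3 and 23.1 to 56.5). Both clusters of 4 were made of regions of moderate or low strength. The cluster of 4 at IV 5584213 to 5606963 had a smallest q of 2.88e-11 and 1 region in all 3 lists, at 5601030 to 5606963. That at IV 9196341 to 9212748 had a smallest q of 8.06e-12 and no region in all 3 lists, and replicate 1 had no peak in it.

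Of the clusters of 3, the first along the chromosome was at IV 1708280 to 1723482 (15.2 kb, smallest q 2.74e-29, 1 region in all 3 lists). Another, at IV 4467907 to 4480826, began with the strong region that the combined list lacked. Its 3 regions filled 96.01% of its 12.9 kb.

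The 3 widest gaps held no peak of any list. They were the 605.1 kb between 16494824 and 17099921 and the 424.5 kb between 15276154 and 15700678, both in the right arm, and the 349.3 kb between 12363483 and 12712755 in the centre. The last of these lay just right of the densest segment. The 8 regions right of the widest gap included the strong one of replicate 1 at 17276834, and none of the 8 was in all 3 lists. Without the stretch right of that gap, a setting chosen after the data were seen, the left arm still had 1.80 times the regions per Mb of the right arm (exact binomial p = 0.00872).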

How the data were processed

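RNA polymerase II ChIP was measured in 2 replicates, with 2 input samples. Per the file headers and columns, PeakSeq was the peak caller, run on each replicate and on merged reads, each against the merged input. Each deposited peak carries a q-value (a p-value adjusted for multiple tests), which was used only to rank, filter and describe peaks. ELAND alignment of 36 bp reads is named in the deposited description; no version is given in the sources used here. The authors deposited read counts per run, which were summed per sample. The build is WormBase WS220, per the file headers.

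Rows overlapping by 1 bp were merged and placed by midpoint. Shares have exact (Clopper-Pearson) 95% intervals, which cover counting error only; the limit beside a count of 0 is 3 counts of the total, not such an interval. Density tests were two-sided exact binomial tests, with Benjamini-Hochberg adjustment over 3. Only the test of the centre share was tried on simulated data. Regions were placed independently there, so the trial cannot show how far dependence between neighbours shifts the p-values. Regions were named by rule: the 10 with the smallest q, the 5 widest, those with a replicate q under 1e-50 and no combined-list peak, the 3 largest clusters (ties by position) and the 3 widest gaps, and the strongest of a compartment or support class. The second cluster of 3 named was chosen after its values were seen. Alternatives were other spans, units, lists, overlaps and strength limits. The members, lists and tests were chosen with earlier results of these data known. Protein-coding genes were only counted per chromosome, from the WBcel235 table. Software was Python 3.11.15, NumPy 2.4.6, SciPy 1.17.1, pandas 2.3.3 and matplotlib 3.10.9.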

Additional observations from a re-analysis of the deposited data

How the results depend on the processing

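Over 7 results and 48 alternative settings, 27 settings kept the direction and the side of the threshold, or stayed within the interval of the value reported. The excess of the left over the right arm (1.81) passed in all 10 alternatives with a test, and was 1.65 by base pairs. The replicate 2 and replicate 1 lists alone gave 1.72 and 2.69. The share of regions in the centre (59.6%) no longer passed with the span begun at the first peak (55.6%) or in the replicate 2 list alone (54.6%). Nor did it pass for regions in all 3 lists (58.1%) or for regions with the smaller q values (55.2%). Fewer regions or peaks were tested in all of these cases but the first. The replicate 1 list alone gave 61.2%, which passed. The ratio of IV to II, III, V and X (1.15), a background without the denser I, did not pass in the main setting (exact binomial p = 0.0509). It passed with each replicate left out (1.23 to 1.27), with clusters as the unit (1.20) and per protein-coding gene (1.26). For regions in all 3 lists (1.28) it passed narrowly (exact binomial p = 0.0470, interval from 1.0005). The combined list alone did not pass (1.16, exact binomial p = 0.0542). Nor did the regions with the smaller q values (1.14, exact binomial p = 0.206). By base pairs covered the ratio was 1.11, without a test. It passed against V (1.42) and X (1.47) alone and turned round against II (0.969) and III (0.856); the cause was not tested. The settings against single chromosomes, per gene, with regions of at least 36 bp, with combined-list peaks overlapped by both replicates and with the right arm ended at the widest gap were added after seeing the data. The share in all 3 lists (37.2%) was 68.8% among regions with the smaller q values. The overlap of replicate 1 by replicate 2 (66.4%) was 55.3% with 50% of both peaks covered and 78.9% among peaks with the smaller q values, and that of replicate 2 by replicate 1 (59.2%) 48.3% and 78.2%. The share within 10 kb of another region (45.6%) was 35.6% at 5 kb and 60.0% at 20 kb. It was 32.9% and 40.8% in the replicate 1 and replicate 2 lists alone. These settings made a stricter or looser demand or left fewer peaks, and the cause of the changes was not tested. No paired analysis was possible because no peak list was made from input DNA alone.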
